A study of Mus musculus with 8 samples.

Results

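The tripartite motif (TRIM) genes were followed at the level of mRNA and of ribosome occupancy in dendritic cells without the m6A methyltransferase Mettl3. The family was taken by name, as every gene symbol of Trim followed by a number in both deposited tables, which gave 39 genes of 11743 genes in both tables. Of these, 34 had a mean RPKM (reads per kilobase of transcript and per sequencing depth) of 1 or more both in input mRNA and in ribosome-protected fragments, among 10321 genes that did. Trim16, Trim45, Trim46, Trim47 and Trim69 did not, and have values but no test.

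The study profiled ribosomes in bone marrow-derived dendritic cells (BMDC) of C57BL/6 mice to ask how m6A bears on translation during dendritic cell activation. KO cells came from mice with both Mettl3 alleles floxed (fl/fl) and a Cre driven by the CD11c promoter, which removes exons 2 to 4, and WT cells came from Mettl3 fl/fl littermates. The labels give the genotypes as Mettl3-/- and wild type. All groups were cultured from marrow of mice of 6 weeks with GM-CSF and IL-4, enriched with beads against CD11c, and given 100 ng/ml of lipopolysaccharide (LPS) for 24 h. After cycloheximide, a part of each lysate gave polyadenylated input mRNA, and the rest was digested with micrococcal nuclease and the 80S monosome taken for ribosome-protected fragments (RPF). There were 2 replicates of KO RPF, KO input, WT RPF and WT input, 8 libraries in all. Littermate pairs of mice were used, but nothing says which mice entered which replicate, so a p-value here speaks only of the spread among these libraries, and that spread may be technical. In bulk libraries, fewer cells of a type and less RNA per cell cannot be told apart.

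TRIM proteins are built from a RING domain, which recruits the enzyme that carries ubiquitin, from B-boxes and from a coiled coil, and most are ubiquitin ligases. The part at the C-terminus differs between subfamilies and chooses the substrate. In dendritic cells and macrophages the family is known for its work on viral RNA and DNA sensing, on Toll-like receptor and NF-kB signalling and on direct restriction of retroviruses, and many members are induced by interferon, which LPS elicits.

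The interferon-stimulated response element (ISRE) is the promoter sequence through which interferon switches on its target genes. Its core, read here as 2 copies of GAAA with any 2 bases between them on either strand, was searched in the promoter windows of RefSeq (GRCm38.p6), from 250 bases before to 50 after the start. Windows were present for 28 of the 39 TRIM genes, and 6 of these held the core (21.4%), against 3.99% of 27025 genes with a window and 3.44% of 32851 windows. Of the 6, Trim12c, Trim30a, Trim30d and Trim34a are neighbours in the same cluster of TRIM genes on chromosome 7. They are not separate occurrences, so the share is a description. The core of the GAS element, TTC and GAA with any 3 bases between them, was in 2 of the 28 TRIM genes (Trim45 and Trim46, 7.14%), against 9.55% of all genes. No TRIM gene held both cores, but the share of all genes that hold both was not counted, so nothing is read from this. A match describes letters in the window, not a site.

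The windows with the ISRE core are shown because they include the 3 TRIM genes with the highest RPF level in WT. Each is given 5′ to 3′ on the strand of its gene, with the core in capitals. They lie at chr7:104353344-104353403 (minus strand, Trim12c), chr7:102565433-102565494 (minus strand, Trim21), chr17:36836961-36837026 (plus strand, Trim26), chr7:104465195-104465254 and chr7:104446089-104446148 (minus strand, upstream and downstream starts of Trim30a), chr7:104507856-104507915 (minus strand, Trim30d) and chr7:104244442-104244501 (plus strand, Trim34a).
Trim12c: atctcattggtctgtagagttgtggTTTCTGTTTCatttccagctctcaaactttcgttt
Trim21: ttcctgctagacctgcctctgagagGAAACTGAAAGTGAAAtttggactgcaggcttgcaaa
Trim26: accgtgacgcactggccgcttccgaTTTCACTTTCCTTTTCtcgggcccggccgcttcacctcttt
Trim30a, upstream start: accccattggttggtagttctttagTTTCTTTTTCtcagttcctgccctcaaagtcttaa
Trim30a, downstream start: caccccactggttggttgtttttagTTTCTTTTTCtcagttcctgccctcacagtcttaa
Trim30d: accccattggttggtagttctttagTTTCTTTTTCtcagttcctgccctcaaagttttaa
Trim34a: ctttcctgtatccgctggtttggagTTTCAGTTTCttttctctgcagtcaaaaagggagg

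Trim21 and Trim26 each held 2 overlapping cores in this window. The stretch at the upstream start of Trim30a matched that of Trim30d in 59 of 60 bases. In 6 of the 7 windows the first core began between positions -41 and 13 from the start, and in Trim26 at position -160.

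**Figure D1:**
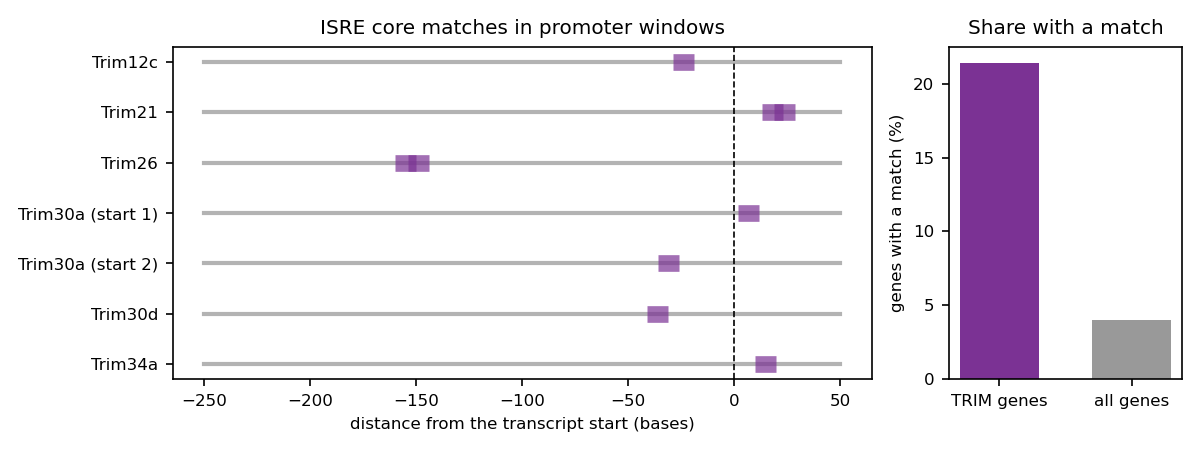
Left, position of ISRE core matches (purple) in the promoter windows of the 6 TRIM genes that hold one, as distance in bases from the transcript start (dashed line); Trim30a start 1 is its downstream and start 2 its upstream start. Right, share of genes with a match, in percent, for 28 TRIM genes (21.4%) and 27025 genes with a window (3.99%). Trim12c, Trim30a, Trim30d and Trim34a are neighbours on chromosome 7.

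The targeted gene was checked first. Mettl3 had 6.27 and 11.9 RPKM of input in the libraries labelled KO (replicates 1 and 2), against 6.97 and 10.1 RPKM in those labelled WT. Its RPF value was 15.3 and 5.88 RPKM in KO, against 34.0 and 9.63 RPKM in WT. RPF was lower in both replicates and input in replicate 1 only, and neither change passed the test (adjusted p = 0.999 for RPF and 1.00 for input, limma). The RPKM of the whole gene includes exons outside the deleted part, so it checks the labels only in part, and KO and WT below mean the libraries labelled so. Depth could be recovered for replicate 2 only, at 5276407 RPF reads in KO and 4835140 in WT, and 8794579 input reads in KO and 9920474 in WT. The median log2 difference of KO over WT in RPF was -0.46 in replicate 1 and -0.03 in replicate 2 over all tested genes. A difference called relative below has this median of its own replicate and measure taken away.

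Among the TRIM genes the highest input levels belonged to Trim30a, a brake on Toll-like receptor signalling, Trim35, Trim25, the ligase of the RNA sensor RIG-I, Trim14, an adaptor of the mitochondrial sensor protein MAVS, and Trim28 (KAP1), the co-repressor of KRAB zinc finger proteins. Trim30a input was 86.4 and 133 RPKM in KO (replicates 1 and 2), against 107 and 105 RPKM in WT. Trim35 input was 94.0 and 97.3 RPKM in KO, against 71.2 and 110 RPKM in WT. Trim25 input was 44.6 and 72.2 RPKM in KO, against 64.9 and 69.5 RPKM in WT. For each of these 3 genes KO was higher in 1 replicate and WT in the other. Over the 34 tested TRIM genes the median input was 10.5 and 10.1 RPKM in KO, against 10.4 and 10.4 RPKM in WT, close to the 10.3 and 13.3 RPKM in KO and 10.6 and 13.4 RPKM in WT of all tested genes.

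**Figure D2:**
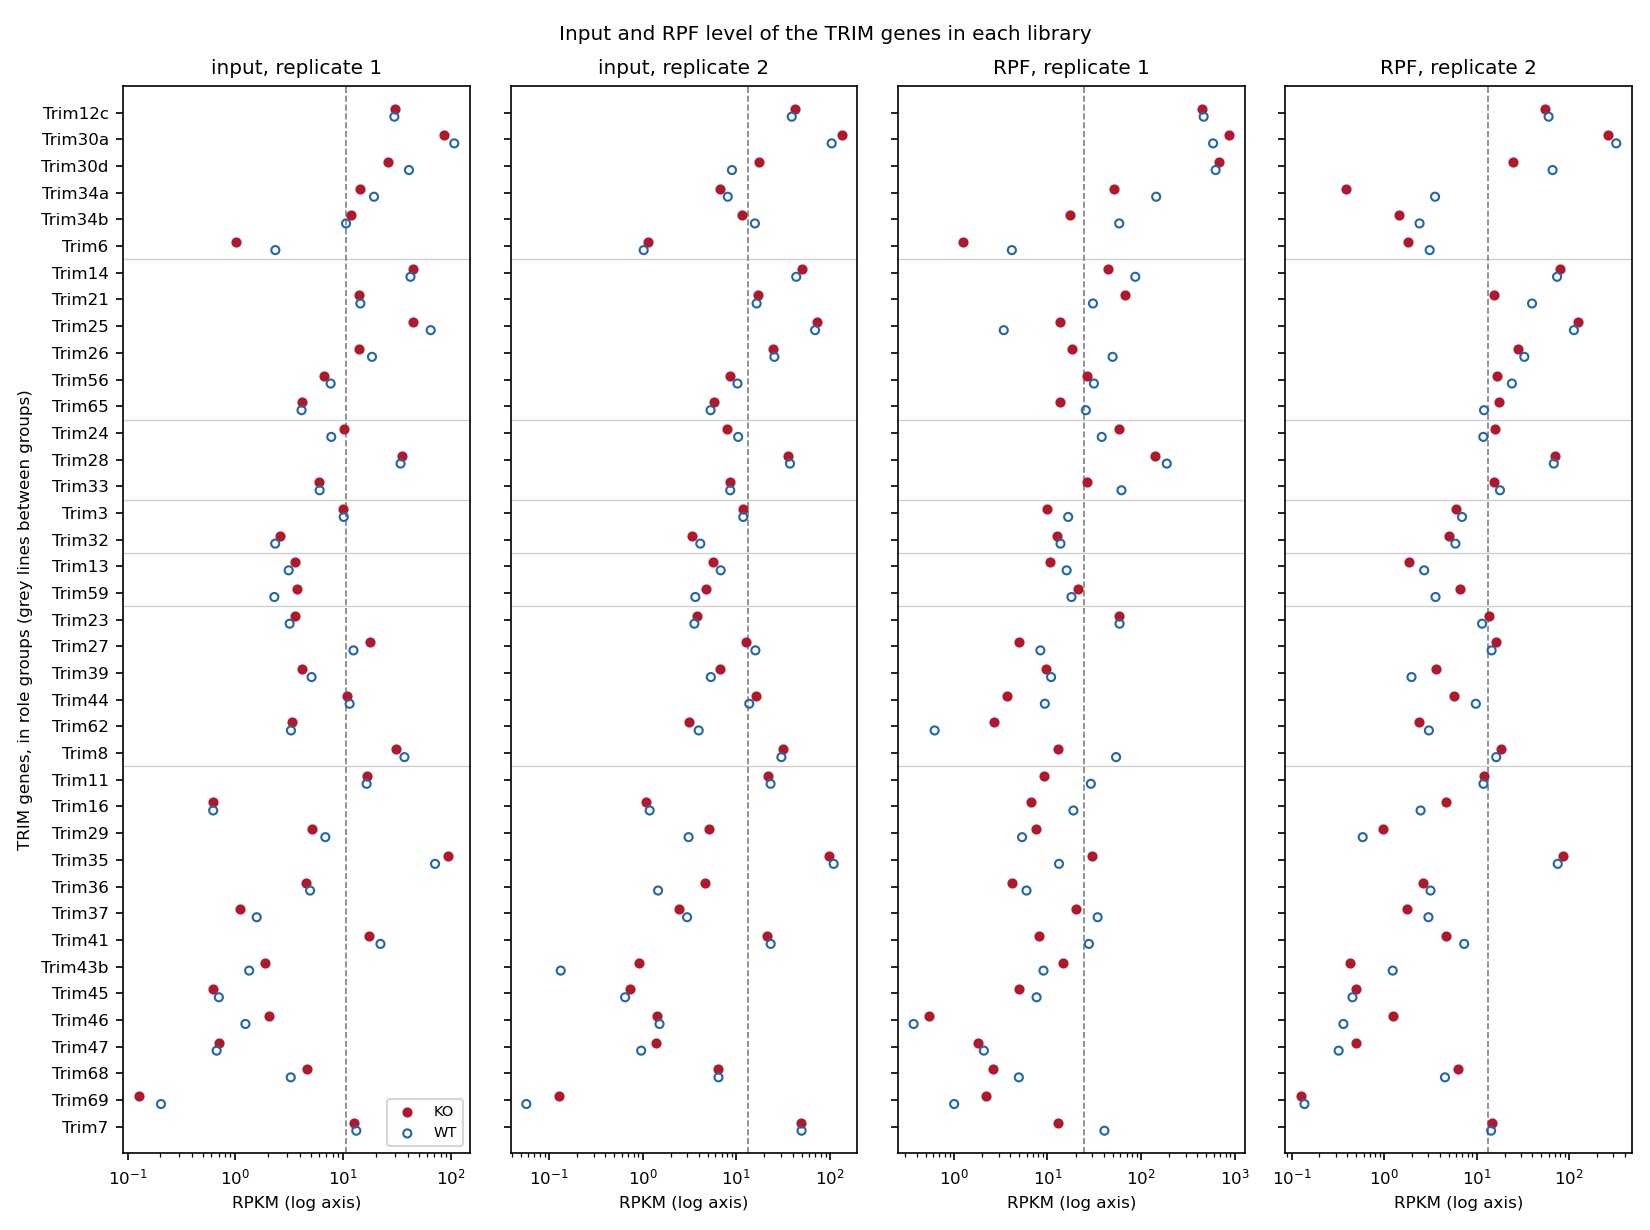
Level of the 39 TRIM genes in the 8 libraries, in RPKM on a log axis, with KO as filled red points and WT as open blue circles. Genes stand in role groups separated by grey lines (from the top: TRIM5 cluster, antiviral sensing, TIF1 co-regulators, NHL repeats, membrane-anchored, cytokine and NF-kB signalling, others), and the dashed line is the median of all tested genes in WT. Trim30a reached 868 RPKM of RPF in KO replicate 1, and Trim34a was at 0.391 RPKM in KO replicate 2.

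In RPF the order was led by genes of the TRIM5 cluster on chromosome 7, the mouse relatives of the retroviral restriction factor known from primate TRIM5. Trim30a had 868 and 263 RPKM of RPF in KO, against 588 and 322 RPKM in WT. Trim30d, a paralogue of Trim30a, had 684 and 24.8 RPKM of RPF in KO, against 626 and 66.2 RPKM in WT. Trim12c had 448 and 55.3 RPKM of RPF in KO, against 466 and 59.9 RPKM in WT. All 3 were higher in replicate 1 than in replicate 2 in both genotypes. KO was above WT in replicate 1 and below it in replicate 2 for Trim30a and Trim30d, and slightly below it in both for Trim12c. The relative difference of Trim12c in RPF was 0.40 in replicate 1 and -0.09 in replicate 2. The level of RPF in WT correlated between the replicates at r = 0.56 over the 34 TRIM genes and 0.57 over all tested genes, whereas input correlated at 0.89 and 0.93. These are descriptions across genes, which share libraries and are not independent replicates, and the tables of the replicates may have been scaled separately.

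No TRIM gene passed the test for input, for RPF or for translation efficiency (the log2 RPF minus the log2 input of the same lysate). With limma and Benjamini-Hochberg adjustment over all 10321 genes, 0 of the 34 TRIM genes had an adjusted p under 0.05 in input, where the share of all genes was 0.0%. The count was 0 of 34 in RPF, against 0.242% of all genes (9 higher and 16 lower in KO), and 0 of 34 in translation efficiency, against 0.203% of all genes (8 higher and 13 lower). At an unadjusted p under 0.05, 2 TRIM genes were higher in KO in input (Trim43b and Trim59, against 1.16% of all genes) and none was lower (against 2.12%). In RPF 1 was lower (Trim34a, against 4.06% of all genes) and none was higher (against 1.54%). In translation efficiency 1 was lower (Trim34a again, against 3.88%) and none was higher (against 1.8%). Each of these counts is 2 genes or fewer.

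Directions were counted next. In RPF, 11 of 34 TRIM genes had a relative difference below 0 in both replicates (24.4% of all genes did) and 8 had one above 0 in both (24.4% of all genes). In input 6 were below 0 in both (23.0% of all genes) and 7 above 0 in both (23.1%). In translation efficiency 10 were below 0 in both (24.7%) and 8 above 0 in both (24.7%). The median relative difference of the 34 genes was 0.01 and -0.01 for input, -0.07 and -0.18 for RPF and -0.01 and -0.14 for translation efficiency (replicates 1 and 2), where all genes are at 0 by definition. Between replicates, the differences of the 34 genes correlated at r = -0.16 for input, 0.11 for RPF and -0.15 for translation efficiency, and those of all tested genes at -0.12, -0.01 and 0.00. Across the TRIM genes, as across all genes, the difference in 1 replicate said little of that in the other.

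**Figure D3:**
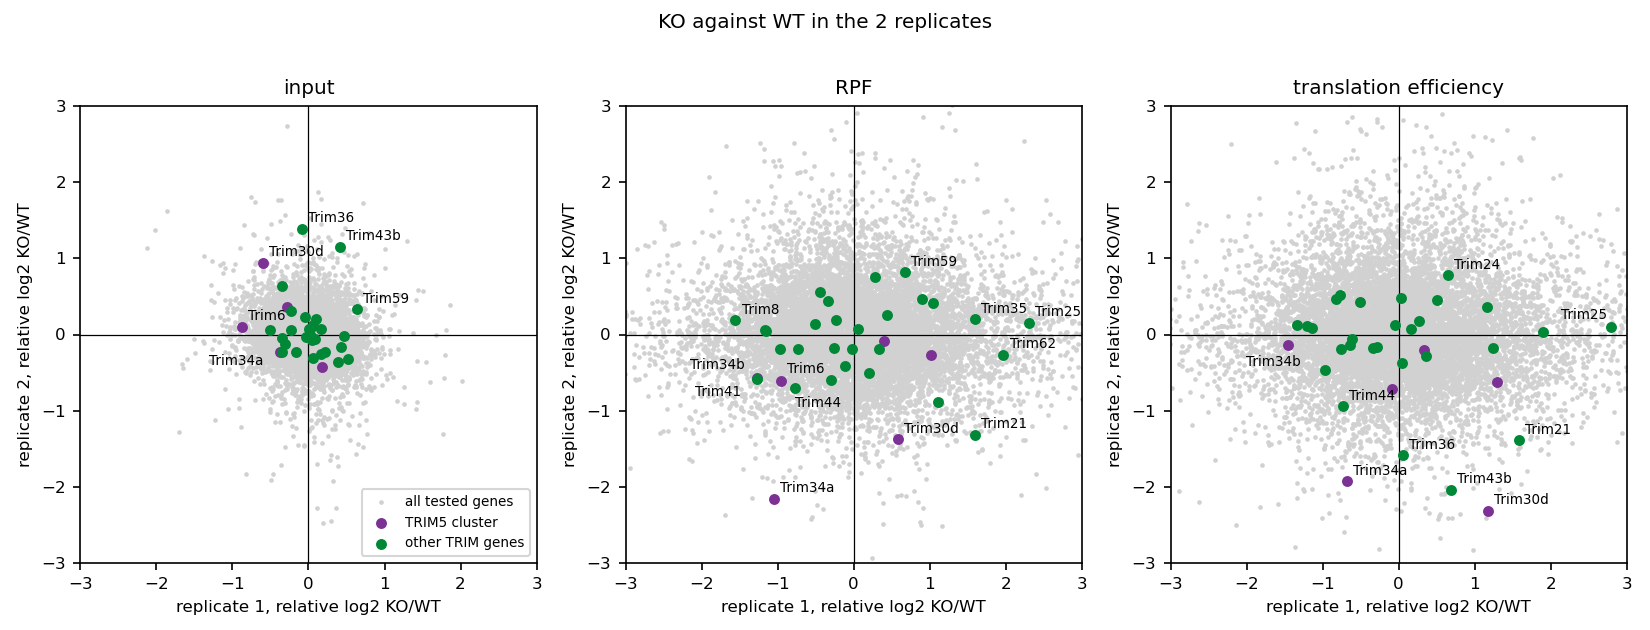
Relative log2 difference of KO over WT in replicate 1 (horizontal) against replicate 2 (vertical) for input, RPF and translation efficiency, with all 10321 tested genes in grey (some lie beyond the axes), the 6 TRIM5 cluster genes in purple and the other 28 TRIM genes in green. In RPF, 11 TRIM genes lie in the lower left quadrant and 8 in the upper right.

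A relative difference of at least 1.5-fold in the same direction in both replicates was rarer. In RPF, 4 of 34 TRIM genes were at least 1.5-fold lower in KO in both replicates (Trim34a, Trim41, Trim44 and Trim6, 11.8%, against 3.17% of all genes), and Trim59 was at least 1.5-fold higher in both (2.94%, against 4.04%). In translation efficiency Trim34a and Trim44 were lower to that extent (5.88%, against 3.92% of all genes) and Trim24 was higher (2.94%, against 4.77%). In input no TRIM gene passed this fold downwards (0.136% of all genes did) or upwards (0.145%).

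Trim34a, a member of the TRIM5 cluster, had the largest fitted difference in RPF among the TRIM genes. It had 50.8 and 0.391 RPKM of RPF in KO (replicates 1 and 2), against 145 and 3.55 RPKM in WT. In replicate 2 these values stood on 3 reads in KO and 25 reads in WT, a log2 ratio of -3.19 with a 95% exact interval of -5.56 to -1.47 for counting error only. Trim34a input was 14.5 and 6.79 RPKM in KO, against 19.3 and 8.13 RPKM in WT. RPF and input were lower in KO in both replicates, and RPF by more. The fitted log2 difference was -1.85 ± 0.64 (SE, n = 2 each) in RPF (adjusted p = 0.342, limma), -1.52 ± 0.65 in translation efficiency (adjusted p = 0.670, limma) and -0.32 ± 0.17 in input. The level of RPF also differed between the replicates more than in nearly all genes, at the 99.1st percentile of all tested genes in KO and the 98.6th in WT. Without the replicate as a block, the fitted RPF difference turned to 0.74 without WT replicate 1 and to 1.08 without KO replicate 2, fits in which the gap between the tables enters the difference. Under the same 2 omissions translation efficiency was at 0.46 and 0.88, and input at 0.28 and 0.20.

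Its paralogue Trim34b had 17.2 and 1.43 RPKM of RPF in KO, against 58.4 and 2.42 RPKM in WT, with 11 reads in KO and 17 in WT in replicate 2. The input of Trim34b was 11.8 and 11.6 RPKM in KO, against 10.6 and 15.8 RPKM in WT. RPF was thus lower in KO in both replicates, while input had no common direction, and the fitted difference in RPF was -1.16 ± 0.65 (adjusted p = 0.934, limma). It was 1.00 without WT replicate 1 and 0.43 without KO replicate 2, again with no block. Of the stretches of 28 bases in the coding sequence of Trim34a, 76.2% also occur in Trim34b, and 74.1% of those of Trim34b occur in Trim34a (GENCODE vM21). How reads that match both genes were assigned is not given in the sources used here, so the values of this pair cannot be told apart with certainty.

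The remaining members of the cluster did not share a direction with Trim34a in all cases. Trim6, which builds free ubiquitin chains that activate the kinase IKK epsilon, had 1.26 and 1.81 RPKM of RPF in KO, against 4.17 and 3.11 RPKM in WT, on 14 and 22 reads in replicate 2 (KO and WT). Trim30d input was 26.2 and 17.7 RPKM in KO, against 40.8 and 8.999 RPKM in WT, the widest disagreement between replicates among the TRIM genes in input. In translation efficiency its relative difference was 1.17 in replicate 1 and -2.32 in replicate 2, also the widest. In replicate 2 the RPF reads of Trim30d numbered 136 in KO and 333 in WT (log2 -1.42, 95% interval -1.72 to -1.13), so counting error did not cover the difference within that replicate, while replicate 1 had no difference of that direction. Over the 6 tested genes of the cluster the median relative difference in RPF was -0.27 and -0.59. Of these, 3 were below 0 in both replicates (Trim34a, Trim34b and Trim6) and 0 above. Over all tested genes 24.4% were below in both, and 24.4% above. Since Trim34a and Trim34b share most of their coding stretches, the 3 may not be separate measurements. In the coding sequences of Trim30a and Trim30d, 27.9% and 29.7% of the stretches of 28 bases are shared with another gene, and in that of Trim12c 59.5% are, mostly with Trim5.

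Among the genes of antiviral sensing, Trim21 had replicates that disagreed. Trim21, the cytosolic receptor for antibody-coated virus, had 68.2 and 15.3 RPKM of RPF in KO, against 30.6 and 39.7 RPKM in WT. KO was thus above WT in replicate 1 and below it in replicate 2, where the reads were 112 in KO and 266 in WT (log2 -1.37, 95% interval -1.71 to -1.05). Trim21 input was 14.2 and 17.3 RPKM in KO, against 14.5 and 16.5 RPKM in WT, nearly the same in all 4 libraries. The relative difference of Trim21 in translation efficiency was 1.58 in replicate 1 and -1.39 in replicate 2. Its fitted difference, which averages the replicates, was -0.10 ± 0.61 in RPF (adjusted p = 0.999, limma).

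Trim25, the ubiquitin ligase of RIG-I, had 13.6 and 123 RPKM of RPF in KO, against 3.41 and 112 RPKM in WT. KO was higher in both replicates, but the margin lay in replicate 1, in which RPF of Trim25 was far below that of replicate 2 in either genotype. The RPF over input ratio of Trim25 in replicate 1 was at the 7.32nd percentile of all tested genes in KO and the 0.494th in WT, against the 74.8th and 74.7th in replicate 2. In replicate 2, where it was counted on 1235 reads in KO and 1034 in WT, the log2 ratio of RPF was 0.13 (95% interval 0.01 to 0.25). The fitted difference was 0.99 ± 0.62 in RPF and 1.23 ± 0.63 in translation efficiency (adjusted p = 0.871, limma). In RPF it turned to -1.44 without WT replicate 1 and to -0.58 without KO replicate 2, in fits without the block, and translation efficiency to -1.15 without WT replicate 1. The standard errors in RPF and translation efficiency come from the spread over all genes, so the disagreement between the replicates of Trim25 or Trim21 does not enter them.

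The other antiviral members had fitted differences in RPF between -0.82 (Trim26) and -0.18 (Trim65), none past the test. The median of all tested genes was -0.23, so Trim65 stood near it. Trim14 had 44.3 and 79.8 RPKM of RPF in KO, against 86.7 and 74.0 RPKM in WT. Trim26, a ligase described for IRF3 and TAB1, had 18.1 and 28.2 RPKM of RPF in KO, against 49.6 and 32.8 RPKM in WT. Trim56, which ubiquitinates STING and cGAS, had 26.2 and 16.4 RPKM of RPF in KO, against 31.4 and 24.0 RPKM in WT. Of the 3, Trim26 and Trim56 were below WT in both replicates as deposited, and on the relative scale Trim56 was at 0.20 in replicate 1 and -0.51 in replicate 2. Trim65, the ligase of the RNA sensor MDA5, had 13.6 and 17.5 RPKM of RPF in KO, against 25.7 and 12.0 RPKM in WT, with opposite directions in the replicates.

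**Figure D4:**
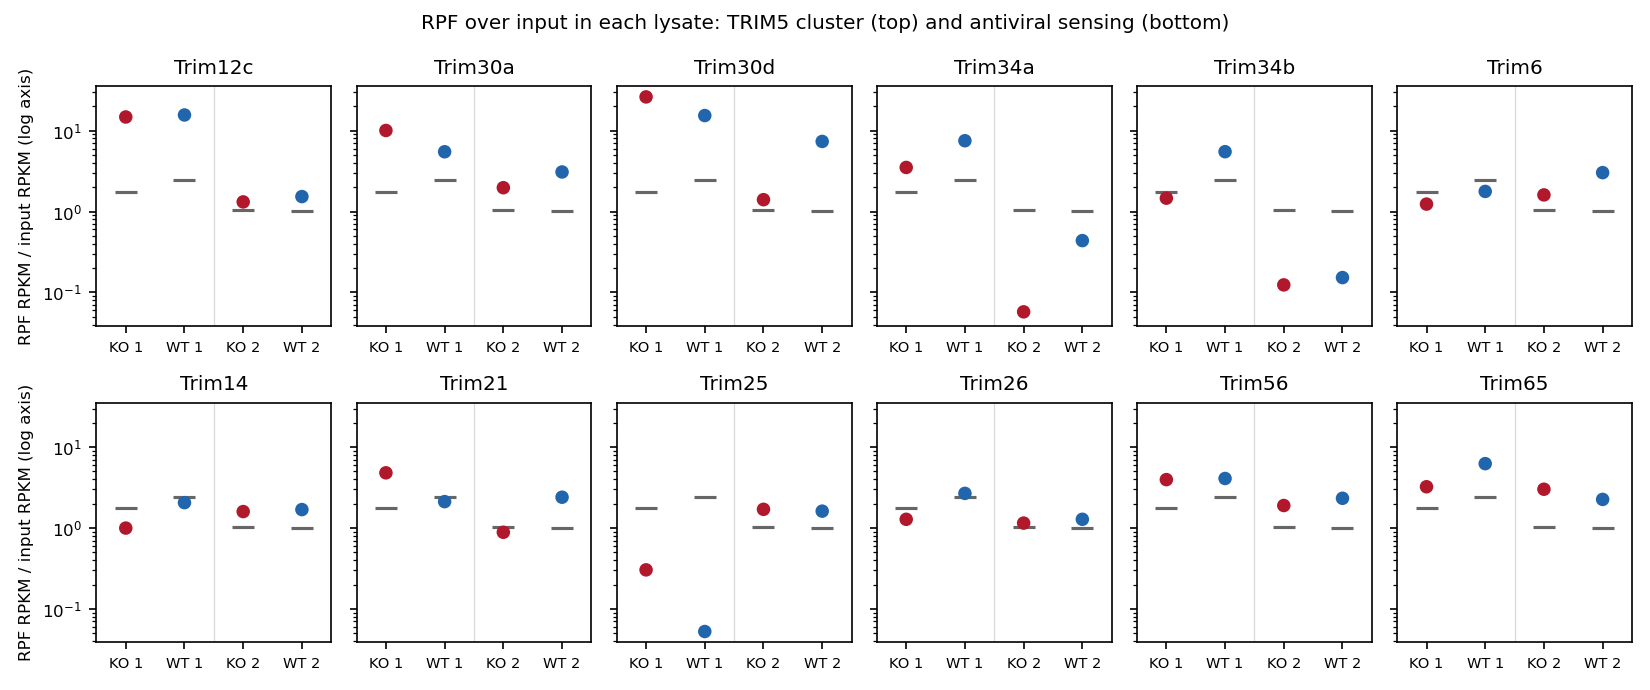
RPF RPKM divided by input RPKM (log axis) in each of the 4 lysates, KO 1, WT 1, KO 2 and WT 2, for the 6 tested TRIM5 cluster genes (top) and the 6 antiviral sensing genes (bottom), with KO in red and WT in blue. Grey dashes mark the median of all tested genes in that lysate, from 1.01 in WT 2 to 2.42 in WT 1, and Trim34a in KO 2 is the lowest point of the TRIM genes in that lysate at 0.0576.

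The 3 tested TIF1 genes act on chromatin, and none of them passed the test. Trim28 had 142 and 70.1 RPKM of RPF in KO, against 188 and 68.2 RPKM in WT, and 35.5 and 35.8 RPKM of input in KO, against 34.1 and 37.5 RPKM in WT. Trim24 (TIF1 alpha) had 57.5 and 15.6 RPKM of RPF in KO, against 38.0 and 11.8 RPKM in WT, and was higher in KO in both replicates. Trim24 input was 10.1 and 7.98 RPKM in KO, against 7.76 and 10.5 RPKM in WT, higher in KO in replicate 1 and lower in replicate 2. In replicate 2 the log2 ratio of translation efficiency of Trim24 was 0.80 from the reads (95% interval 0.45 to 1.15). It combined 0.41 in RPF and -0.39 in input. The fitted value of Trim24 in translation efficiency was 0.50 ± 0.64 (adjusted p = 1.00, limma). Trim33 (TIF1 gamma) had 26.7 and 15.3 RPKM of RPF in KO, against 61.8 and 17.9 RPKM in WT, lower in KO in both replicates.

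Among genes of cytokine and NF-kB signalling, Trim44, which lacks a RING domain, was lower in RPF in KO in both replicates. It had 3.73 and 5.68 RPKM of RPF in KO, against 9.38 and 9.79 RPKM in WT, and 10.9 and 16.2 RPKM of input in KO, against 11.5 and 13.8 RPKM in WT. Its fitted difference was -1.06 ± 0.66 in translation efficiency (adjusted p = 0.981, limma), on 31 reads in KO and 49 in WT in replicate 2, where the log2 ratio of translation efficiency was -1.02 (95% interval -1.73 to -0.33). Trim44 kept this sign in each fit that left a library out, from -1.15 to -0.96, and Trim34a did not. These fits have no block, so the gap between the tables enters them. In translation efficiency in KO that gap was at the 98.5th percentile of all tested genes for Trim34a and the 32.5th for Trim44. Within the replicates the relative difference in translation efficiency was -0.68 and -1.92 for Trim34a, and -0.74 and -0.95 for Trim44. Trim8, which acts on SOCS1 and TAK1, had 13.0 and 18.2 RPKM of RPF in KO, against 54.1 and 16.3 RPKM in WT, so that it was lower in replicate 1 and higher in replicate 2. Trim62, a ligase of CARD9, had 2.71 and 2.39 RPKM of RPF in KO, against 0.623 and 3.05 RPKM in WT, the opposite order. Trim23, Trim27 and Trim39 had fitted differences in RPF between -0.26 and 0.28, where the median of all tested genes was -0.23.

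The NHL-repeat genes Trim3 and Trim32 and the membrane-anchored genes Trim13 and Trim59 were lower or higher in RPF in KO without passing the test. Trim3 had 9.93 and 5.94 RPKM of RPF in KO, against 16.6 and 6.95 RPKM in WT. Trim32 had 12.7 and 5.02 RPKM of RPF in KO, against 13.8 and 5.89 RPKM in WT. Trim13, a ligase of the endoplasmic reticulum, had 10.6 and 1.86 RPKM of RPF in KO, against 16.02 and 2.71 RPKM in WT. All 3 were lower in KO in both replicates as deposited, though Trim32 was above the median of all genes in replicate 1. Trim59 went the other way, with 21.0 and 6.58 RPKM of RPF in KO, against 18.1 and 3.59 RPKM in WT. Its input was 3.75 and 4.71 RPKM in KO, against 2.30 and 3.66 RPKM in WT, higher in KO in both replicates (fitted log2 0.46 ± 0.20, adjusted p = 1.00, limma). The fitted translation efficiency of Trim59 was at 0.04, where the median of all tested genes was -0.20. Its relative difference in translation efficiency was 0.03 in replicate 1 and 0.48 in replicate 2. Without WT replicate 1 the input difference was 0.18, and without WT replicate 2 it was 0.75, both with no block. Of the stretches of 28 bases in Trim59, 34.0% are shared with other transcripts of the annotation, and in Trim13 43.1% are.

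Outside the role groups, Trim41 was lower in RPF in KO in both replicates. It had 8.04 and 4.61 RPKM of RPF in KO, against 27.7 and 7.33 RPKM in WT, and 17.4 and 21.2 RPKM of input in KO, against 22.2 and 23.3 RPKM in WT. The fitted difference in RPF was -1.17 ± 0.65 (adjusted p = 0.930, limma), and that of input -0.24 ± 0.17. In fits that left out 1 library, with no block, RPF ranged from -2.09 without WT replicate 2 to -0.24 without WT replicate 1, and input from -0.38 without KO replicate 2 to -0.10 without KO replicate 1. Trim35 was above WT in RPF in both replicates, with 29.9 and 85.0 RPKM in KO, against 13.3 and 75.2 RPKM in WT. Trim37, a ligase of histone H2A, was lower in RPF in both, with 20.2 and 1.77 RPKM in KO, against 34.3 and 3.01 RPKM in WT, and its input was also lower in both (fitted log2 -0.31 ± 0.23). With no block, the input value was 0.066 without WT replicate 2 and 0.14 without KO replicate 1, against -0.75 without KO replicate 2 and -0.68 without WT replicate 1. Trim7, Trim11 and Trim68 were lower in KO in replicate 1 and higher in replicate 2 in RPF. Trim29 was higher in KO in RPF in both replicates, on 9 reads in KO and 5 in WT in replicate 2.

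Input of Trim43b had the largest fitted difference of the TRIM genes, 0.76 ± 0.31 (adjusted p = 1.00, limma), at very low levels. It was 1.29 with a pseudocount of 0.1 and 0.53 with a pseudocount of 1, and -0.0060 without WT replicate 2 (no block). It was 1.90 and 0.905 RPKM in KO, against 1.34 and 0.134 RPKM in WT, on 18 reads in KO and 3 in WT in replicate 2, and 80.5% of its stretches of 28 bases are shared with other genes, chiefly Trim43a and Trim43c. Trim36 input was 4.50 and 4.63 RPKM in KO, against 4.94 and 1.46 RPKM in WT. Only WT replicate 2 was low, and the fitted difference of Trim36 in translation efficiency was -0.98 ± 0.70 (adjusted p = 1.00, limma). Its relative difference in translation efficiency was 0.06 in replicate 1 and -1.59 in replicate 2. Without WT replicate 2 the fitted value was -0.66, with no block, so that the gap between the tables enters it. The 5 genes that did not pass the filter were between 0.0573 and 2.07 RPKM in input, and of these Trim16 had the highest RPF, 6.61 and 4.66 RPKM in KO, against 18.9 and 2.48 RPKM in WT.

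The ratio of RPF to input placed the TRIM genes near the middle of all genes. The median ratio of the 34 was 1.89 and 0.936 in KO, against 2.87 and 1.07 in WT, beside 1.76 and 1.04 in KO and 2.42 and 1.01 in WT for all tested genes. In all 4 lysates 10 of the 34 TRIM genes (29.4%) lay above the median of all genes, against 22.1% of all tested genes: Trim12c, Trim23, Trim24, Trim28, Trim30a, Trim30d, Trim32, Trim33, Trim56 and Trim65. Trim23, which carries an ARF domain, was high throughout, at 16.4 and 3.57 in KO, against 18.5 and 3.20 in WT. Trim30d had a ratio of 26.1 and 1.40 in KO, against 15.4 and 7.35 in WT. Trim34a had 3.51 and 0.0576 in KO, against 7.50 and 0.437 in WT, above the median of all genes in replicate 1 and far below it in replicate 2 in both genotypes. Ratios of RPKM from separately scaled libraries have no absolute meaning and are given as a description.

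The 6 TRIM genes with an ISRE core (Trim12c, Trim21, Trim26, Trim30a, Trim30d and Trim34a, sequences above) had a median RPF of 258 and 26.5 RPKM in KO, against 306 and 49.8 RPKM in WT. The 18 tested genes whose windows had none were at 12.8 and 5.96 RPKM in KO, against 17.0 and 6.61 RPKM in WT. Median input of the genes with a core was 20.3 and 21.1 RPKM in KO, against 24.6 and 21.0 RPKM in WT, and of those without 5.61 and 7.34 RPKM in KO, against 6.38 and 8.57 RPKM in WT. The relative RPF difference of the 6 had a median of 0.49 in replicate 1 and -0.79 in replicate 2, opposite directions, with 2 genes (Trim26 and Trim34a) below 0 in both and 0 above. Over all tested genes 24.4% were below 0 in both and 24.4% above, so these counts are a description. The levels are a description too. The windows were shown because they include the TRIM genes with the highest RPF in WT, so the RPF levels draw on the same values. Trim12c, Trim30a, Trim30d and Trim34a are neighbours in the TRIM5 cluster, and only 24 of the 34 tested genes had a window. Whether the core bears on the level was not tested.

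Of the lists of other genes of the pathway, none had a member past the test in any measure. Over all tested genes, 24.4% were below 0 and 24.4% above 0 in both replicates in RPF on the relative scale. Among 11 tested partners of RIG-I and DNA sensing, 4 were below and 2 above, and among 15 genes of the ubiquitin and ISG15 machinery 7 were below and 2 above. In input 2 partners were below and 1 above, and 2 of the ubiquitin and ISG15 genes were below and 5 above. All genes were at 23.0% and 23.1% there. In translation efficiency the counts were 4 and 0, and 6 and 2 (24.7% of all genes in either direction). Of 4 tested TRIM family genes with other names, Pml and Fsd1l were below 0 in both in RPF and none above. These counts are a description. Ddx58, which encodes RIG-I, the substrate of Trim25, had 53.6 and 103 RPKM of RPF in KO, against 346 and 167 RPKM in WT (fitted log2 -1.69 ± 0.59, adjusted p = 0.362, limma). Isg15, the ubiquitin-like modifier induced by interferon, had 875 and 2425 RPKM of RPF in KO, against 1820 and 3716 RPKM in WT, and 585 and 300.4 RPKM of input in KO, against 475 and 284 RPKM in WT. Both genes were lower in RPF in KO in both replicates without passing the test.

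Dendritic cell markers were all measured (9 of 9), with a summed input of 8177 and 9924 RPKM in KO, against 6876 and 9915 RPKM in WT. Neutrophil markers summed to 1046 and 2759 RPKM in KO, against 1664 and 3039 RPKM in WT, and Ly6g was not in both tables. In input, 6 of 6 tested were below 0 in both replicates on the relative scale, against 23.0% of all tested genes. In RPF, 1 of these 6 was below 0 in both and 4 were above (24.4% of all genes in either direction). Mast cell and basophil markers summed to 5.26 and 23.9 RPKM in KO, against 11.9 and 51.0 RPKM in WT. Of these 4 genes, 4 were below 0 in both in input, and 2 were below and 0 above in RPF. Macrophage markers summed to 609 and 892 RPKM in KO, against 828 and 624 RPKM in WT, and T and NK cell markers to 7.59 and 17.6 RPKM in KO, against 6.04 and 11.3 RPKM in WT. Of 6 macrophage markers 1 was below 0 in both in input and 0 above, and of 6 T and NK cell markers 2 and 3. Of the 9 dendritic cell markers 0 were below and 2 above in input (23.1% of all genes were above). None of 6 erythroid markers and 1 of 3 B cell markers was in both tables. No marker passed the test in input. The part of these cells in the TRIM values was not tested.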

How the data were processed

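The authors deposited RPKM values for each replicate as a separate table. Tools listed in the submitters' processing notes are TopHat2 2.0.14, Cuffnorm and bcl2fastq, with mm10 as the build. How multi-mapping reads were counted is not given in the sources used here. The tables also hold 4 columns of the authors' log2 translation efficiencies, which were not used. Columns of the table of replicate 2 name a group but no sample, and were used as that group.

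Rows with a date for a symbol were left out (27 and 19). Genes with a mean of at least 1 RPKM in input and in RPF were tested with limma 3.58.1 (R 4.3.3) on log2(RPKM + 0.5), which understates changes of low genes, with the replicate as a block, an intensity trend and Benjamini-Hochberg adjustment over all tested genes, two-sided. Same-numbered libraries deviated together (r = 0.78 for input, 0.85 for RPF and 0.83 for translation efficiency), and the number also marks the table. With 1 residual degree of freedom, limma took the spread in RPF and translation efficiency wholly from the trend over all genes, so that a gene's own disagreement between replicates does not enter its SE or p, and in input partly (prior degrees of freedom 7.32).

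Replicate 2 values could be turned back into whole reads with an annotated length (tolerance 0.01 read) for 97.0% of genes in RPF and 78.0% in input. In replicate 1 depth is unknown. Intervals are exact (binomial, and the conditional odds ratio for translation efficiency) and cover counting error only, since reads without molecular identifiers are not independent.

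Members, role groups, lists and tests were chosen with earlier results of these data known. Named are the role groups, the 5 tested TRIM genes per measure with the largest fitted difference of the same sign in both replicates, the 5 highest in WT input and RPF, any called, and the 3 per measure with the widest disagreement. Genes outside this rule were named after their values were seen. Alternatives were the pseudocount, the filter, the scaling, the block, each library left out, the trend and the symbols. The study's qPCR was not analysed here.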

Additional observations from a re-analysis of the deposited data

How the results depend on the processing

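No TRIM gene was called in input, RPF or translation efficiency under any of the 14 alternatives to each fit, and the 10 TRIM genes above the median ratio in all 4 lysates were the same 10 genes with plain ratios. Counts over all genes moved more: 25 calls in RPF and 21 in translation efficiency became 0 with each library centred on its median, 0 with quantile normalization and 0 with no replicate block, RPF had 13 without the intensity trend, and translation efficiency had 35 with a pseudocount of 0.1. Leaving out 1 library each (without the block, so that the gap between the tables enters the difference and a lone library is assumed to vary like the others) gave 0 to 50 calls in input (33 without KO replicate 1), 0 to 3 in RPF and 0 to 2 in translation efficiency. In these fits, input of Trim43b ranged from -0.0060 (without WT replicate 2) to 1.53, input of Trim34a from -0.92 to 0.28 (without WT replicate 1; 0.20 without KO replicate 2) and input of Trim37 from -0.75 to 0.14 (without KO replicate 1; 0.066 without WT replicate 2), as fitted log2 differences. Without WT replicate 1 and without KO replicate 2, the RPF difference was 0.74 and 1.08 for Trim34a (lowest -4.77), 1.00 and 0.43 for Trim34b (lowest -3.33), and -1.44 and -0.58 for Trim25 (highest 3.41). In translation efficiency it was 0.46 and 0.88 for Trim34a (lowest -3.93) and 1.43 and 0.57 for Trim34b (lowest -3.46), and Trim25 was at -1.15 without WT replicate 1 (highest 3.60). Under the other alternatives none of the named fits changed sign, but most of them could not change it. Changing the filter, the block, the trend, the symbols or the genes left out keeps a gene's fitted difference as it is. Only the pseudocount and the scaling alter it. Under these other alternatives the lowest adjusted p was 0.142, for Trim34a in RPF (limma). Depth limits what can be said of low genes in replicate 2, such as Trim34a with 3 RPF reads in KO, and is unknown in replicate 1.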

Other observations

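A further 27 TRIM symbols stood only in the table of replicate 1 and Trim5 only in that of replicate 2, where every gene listed is above 0 in all 4 columns. Of the 27, 24 were under 1 RPKM in both input libraries, and 15 had at least 1 RPKM of RPF in both genotypes. Trim12a, of the TRIM5 cluster, was the highest of them, with 6.03 RPKM of input in KO against 15.5 RPKM in WT, and 55.6 RPKM of RPF in KO against 96.3 RPKM in WT. Trim30b, a paralogue of Trim30a, had 2.06 RPKM of input in KO against 4.88 RPKM in WT. Both come from 1 replicate and have no test.

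Trim5 had 5.97 RPKM of RPF in KO against 1.94 RPKM in WT in replicate 2, with input at 0.0456 RPKM in KO against 0.0404 RPKM in WT. Trim12c shares 48.4% of its stretches of 28 coding bases with Trim5, and how reads matching both were assigned is not given in the sources used here. The muscle genes Trim54, Trim55, Trim63 and Trim72 were listed at 0.0254, 0.0443, 0.0228 and 0.128 RPKM of input in KO, against 0, 0.0252, 0 and 0.107 RPKM in WT. Trim55 had 7.18 RPKM of RPF in KO against 0.742 RPKM in WT.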
